A study of Danio rerio with 13 samples.

Results

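Brains of zebrafish in which both copies of tert were mutant were compared with brains in which 1 copy was mutant. The comparison used 8 of the 13 RNA sequencing libraries of the series, all chosen by their genotype label: 3 labelled AB tert(-/-) and 5 labelled AB tert(+/-), called tert-/- and tert+/- here. The other 5 libraries, of wild-type AB fish, entered the model and are given beside a result where they help to read it. All fish were males of the AB strain and 3 months old. The labels do not say whether a library came from 1 fish or a pool, so that p-values measure only the spread between these libraries. The mutant allele, hu3430, carries a nonsense mutation. Its transcript need not be absent, and the level of tert RNA is therefore no check of the genotype.

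As background, tert encodes the reverse transcriptase subunit of telomerase, the enzyme that adds telomeric repeats to chromosome ends. Without it telomeres shorten as cells divide, and very short ends set off the p53-dependent DNA damage response. In zebrafish, loss of tert is used as a model of premature ageing, in which tissues that renew quickly, such as the intestine, are affected early. The comparison asked what loss of the second allele added to the loss of the first.

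The 3 tert-/- libraries held 25429047 to 32380953 counts and the 5 tert+/- libraries 23215636 to 26219091 (exact permutation test, two-sided, p = 0.0536, adjusted over 5 library measures 0.268; the smallest p this design allows is 0.0179). The labelled tissue was borne out by its markers: mbpa, a myelin protein gene, lay between 13900 and 14948 CPM (counts scaled to library size) in tert-/- and between 13867 and 18246 CPM in tert+/- brains, and elavl3, a neuronal RNA-binding protein gene, between 277.3 and 422.2 CPM in tert-/- and between 257.9 and 385.8 CPM in tert+/-. Libraries differed in the level of genes typical of brain regions. The mean log2 level of a list of hypothalamic peptide genes, relative to the mean of the 13 libraries, was -1.63 in tert-/- 1 and -1.19 in tert+/- 1, against 0.06 to 0.94 in the other 6 mutant libraries. In bulk tissue, fewer cells of a type and less RNA per cell cannot be told apart.

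No gene differed between tert-/- and tert+/- brains at an adjusted p under 0.05 in edgeR's quasi-likelihood test. The count was 0 of 20064 genes tested (0%), and the lowest adjusted p was 0.957, shared by 12 genes. At an unadjusted p under 0.05 there were 927 genes (4.62%), 440 of them higher (2.19%) and 487 lower (2.43%) in tert-/-. In 481 genes (2.4%) the libraries of the groups did not overlap. By DESeq2, 20 of 22315 genes passed (0.0896%): 2 had higher values (0.00896%) and 18 lower values (0.0807%) in tert-/-, and at an unadjusted p under 0.05 there were 1177 of 26989 (4.36%). By limma voom 0 passed, with 956 at an unadjusted p under 0.05. The number that DESeq2 called depended on single libraries, with 14 calls when tert-/- 1 was left out and 53 when tert-/- 3 was left out. The median absolute log2 fold change was 0.14, and 534 genes lay beyond 1 on the log2 scale, 169 of them higher and 365 lower in tert-/-.

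**Figure D1:**
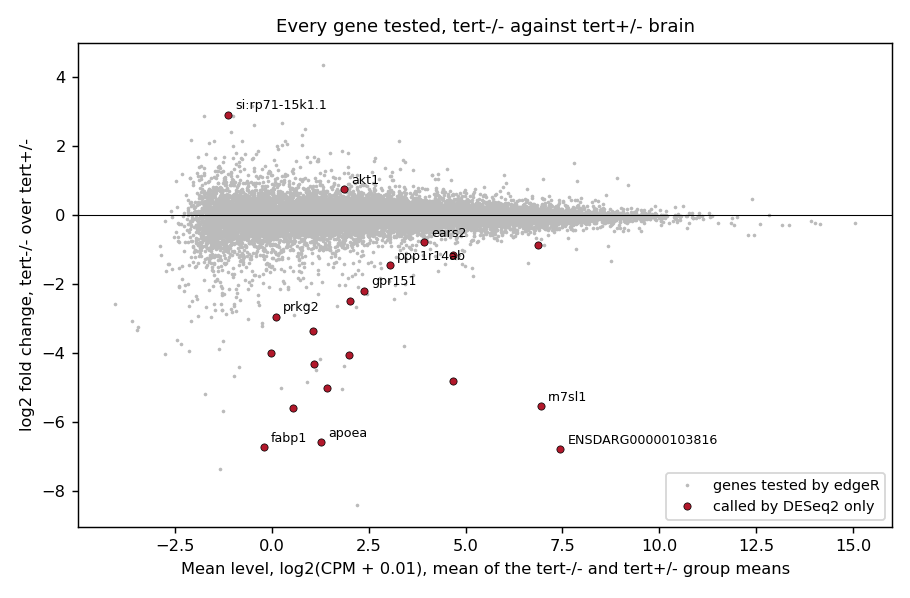
Log2 fold change of tert-/- over tert+/- (vertical axis) against mean level (horizontal axis) for the 20064 genes tested by edgeR, each a grey point. The 20 genes that DESeq2 called are drawn in red; 18 of them lie below 0, and the points with the most negative values include apoea and rn7sl1.

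tert itself was measured at 10.4, 3.96 and 9.71 CPM in tert-/- brains, against 8.80, 5.04, 5.10, 3.61 and 5.92 CPM in tert+/- brains. These ranges overlapped, and the log2 fold change was 0.49 ± 0.34 (SE; edgeR adjusted p = 0.975). Wild-type brains had 1.98 to 3.88 CPM. Of 35 genes tested from a list of telomerase and telomere maintenance, 21 were higher and 14 lower in tert-/-, with a median of 0.06 (0.03 without tert-/- 3), and for all genes tested the median was -0.00. In that list 1 gene had an unadjusted p under 0.05, and 4.62% of all genes did. It was tnks, which encodes the telomere-associated enzyme tankyrase, at 66.1, 53.6 and 66.7 CPM in tert-/-, against 41.5 to 63.4 CPM in tert+/- brains, with overlap.

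Genes of the p53 response showed no common direction. Of 42 tested, 16 were higher and 26 lower in tert-/-, with a median log2 fold change of -0.02. Without tert-/- 1, 25 were higher and 17 lower. mdm4, which encodes an inhibitor of p53, was at 142, 113 and 152 CPM in tert-/- and at 191, 171, 190, 169 and 163 CPM in tert+/- brains. All 3 tert-/- values lay below all 5 tert+/- values, the log2 fold change was -0.38 ± 0.11, and the adjusted p by edgeR was 0.975. The cytokine gene il1b was at 4.43, 3.67 and 4.23 CPM in tert-/-, against 2.21, 2.83, 2.60, 2.25 and 3.41 CPM in tert+/-, with no overlap and a log2 fold change of 0.63 ± 0.20 (edgeR adjusted p = 0.975). Wild-type brains had 1.58 to 2.66 CPM of il1b. A list of senescence and inflammatory signalling genes was near balance: of 33 tested, 17 were higher and 16 lower in tert-/-, with a median of 0.06.

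Among genes whose tert-/- libraries all lay below the tert+/- libraries, the lowest p belonged to ears2, which encodes the mitochondrial glutamyl-tRNA synthetase. It was at 9.55, 13.5 and 10.6 CPM in tert-/-, against 21.5, 21.2, 19.6, 17.6 and 16.9 CPM in tert+/- brains. The groups did not overlap, and the log2 fold change was -0.78 ± 0.15 (edgeR adjusted p = 0.957; DESeq2 adjusted p = 0.00135). Wild-type brains had 17.0 to 23.9 CPM, and the tert+/- difference from wild type was 0.00 ± 0.12 on the log2 scale.

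ppp1r14ab, which encodes an inhibitor of myosin phosphatase, was at 2.42, 5.05 and 5.82 CPM in tert-/- and at 12.18, 11.48, 15.40, 7.27 and 13.9 CPM in tert+/- brains. prkg2, the gene of a cGMP-dependent protein kinase, was at 0.093, 0.255 and 0.388 CPM in tert-/-, against 1.13, 2.25, 1.43, 2.12 and 2.47 CPM in tert+/-. Neither gene overlapped between groups, with log2 fold changes of -1.45 ± 0.31 and -2.94 ± 0.67. bdnf, which encodes the neurotrophin brain-derived neurotrophic factor, was at 48.8, 63.4 and 73.6 CPM in tert-/-, against 86.4, 81.2, 85.9, 89.8 and 89.0 CPM in tert+/- brains, with no overlap (log2 fold change -0.48 ± 0.13, edgeR adjusted p = 0.975). Wild-type brains, at 50.7 to 71.6 CPM, lay within the tert-/- range, so that for bdnf the tert+/- group stood apart from both others.

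DESeq2 alone also called cdc42se2, which encodes an effector of the GTPase CDC42, nwd2 and the unnamed ENSDARG00000101840. cdc42se2 was at 18.3, 11.2 and 18.2 CPM in tert-/-, against 30.3, 52.6, 31.6, 26.7 and 33.9 CPM in tert+/- brains, and nwd2 was at 64.7, 88.9 and 94.2 CPM in tert-/- against 114 to 184 CPM in tert+/-. The groups did not overlap for either gene. Wild-type brains spanned 21.1 to 46.4 CPM of cdc42se2, above all tert-/- values. For nwd2 they spanned 78.7 to 144 CPM and reached into both mutant ranges. The most negative log2 fold change of any gene, -8.39 ± 3.06, belonged to si:ch211-233m11.1, chosen after its values were seen. It had 1, 0 and 1 counts in tert-/-, against 241, 567, 0, 1 and 341 counts in tert+/- libraries. Wild-type libraries had 730, 0, 700, 379 and 0 counts, so that this gene was nearly silent in 2 brains of each other genotype as well.

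Of the genes higher in tert-/- brains, akt1, which encodes a serine/threonine kinase of growth factor signalling, was at 4.46, 4.53 and 4.78 CPM, against 2.050, 2.792, 2.463, 2.997 and 3.203 CPM in tert+/- brains. The log2 fold change was 0.76 ± 0.16 (edgeR adjusted p = 0.957; DESeq2 adjusted p = 0.0142). Wild-type brains, at 3.36 to 4.53 CPM, were nearer to tert-/- than to tert+/-. rreb1, which encodes a zinc finger transcription factor, had its wild-type mean between those of the mutant groups: 5.52, 5.65 and 5.44 CPM in tert-/-, 3.70, 3.84, 3.54, 3.48 and 4.46 CPM in tert+/- and 4.21 to 5.31 CPM in wild type. btd, the gene of biotinidase, had its lowest mean in wild type: it was at 15.81, 17.69 and 14.99 CPM in tert-/-, against 11.21, 11.09, 12.94, 11.63 and 12.73 CPM in tert+/- and 9.17 to 11.6 CPM in wild-type brains.

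Other genes of the 10 with the lowest p in this direction were chst7, which encodes a sulfotransferase, cmklr2, fam222b, cyp2v1 and fez2b, with log2 fold changes between 0.31 and 0.69 and no overlap of libraries. Wild-type brains had a mean of 6.14 CPM of cmklr2, against 6.02 CPM in tert-/- and 3.96 CPM in tert+/-. For cyp2v1 these means were 2.23, 2.96 and 1.84 CPM, with wild type nearer to tert+/-. pkhd1l1 had a log2 fold change of 4.37 ± 0.90, which rested on tert-/- 3: its values were 1.24, 0.990 and 11.9 CPM in tert-/-, against 0 to 0.563 CPM in tert+/- brains. si:rp71-15k1.1, called by DESeq2, was at 0.682, 1.41 and 0.272 CPM in tert-/- and at 0.0402 to 0.176 CPM in tert+/-. rhbg, which encodes an ammonium transporter, was at 28.8, 25.7 and 20.9 CPM in tert-/- and at 20.17, 10.97, 7.43, 9.96 and 12.37 CPM in tert+/- brains. Among other genes, gck, which encodes glucokinase, kcnt2a, a potassium channel gene, and si:ch211-93g21.1 also had no overlap and log2 fold changes of 2.03, 1.26 and 1.67. Wild-type brains spanned 0.175 to 7.64 CPM of gck, 0.612 to 1.47 CPM of kcnt2a and 3.82 to 11.4 CPM of si:ch211-93g21.1. For rhbg they spanned 12.7 to 27.0 CPM. In each of these genes the wild-type values reached into both mutant ranges.

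**Figure D2:**
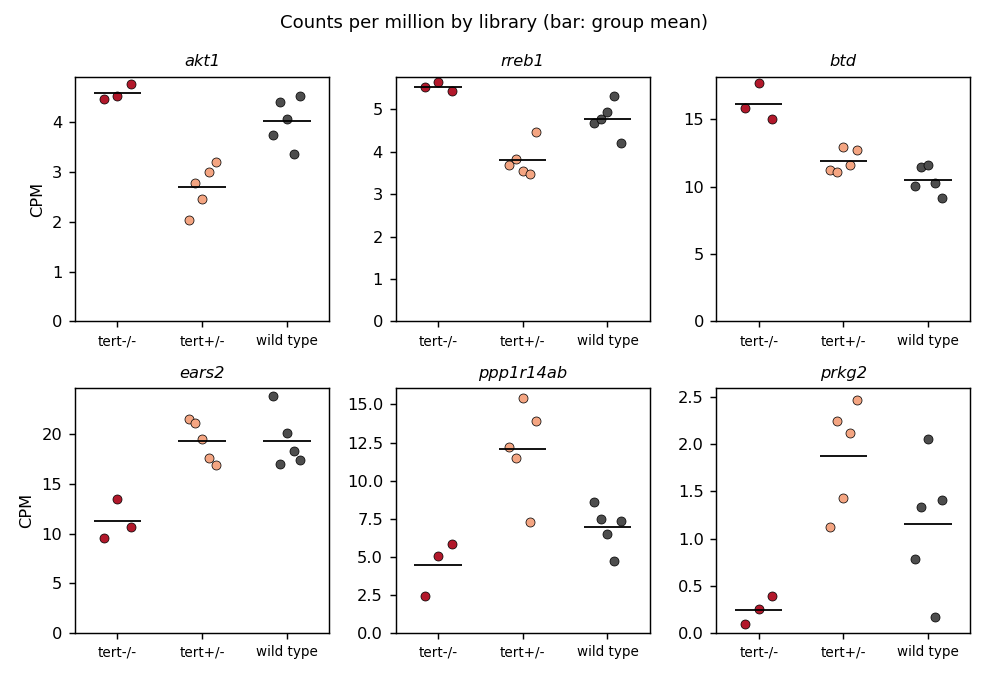
CPM of 6 genes by library (vertical axis, from 0), with the 3 tert-/-, 5 tert+/- and 5 wild-type brains as points and the group mean as a bar. In akt1 the wild-type points lie near the tert-/- points, in rreb1 the wild-type mean lies between those of the mutant groups, and in ears2 the wild-type points lie among the tert+/- points.

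Genes of the habenula, a dorsal forebrain structure that relays signals to the midbrain, stood lower in tert-/- brains at single members. Of 29 tested from a list of habenular genes, 9 were higher and 20 lower, with a median of -0.20, and 5 had libraries below all those of tert+/- (1.23% of all genes tested did). kiss1, which encodes the neuropeptide kisspeptin 1 and in zebrafish is expressed in the habenula, was at 0.682, 1.98 and 2.99 CPM in tert-/-, against 5.83, 8.03, 7.16, 7.36 and 3.69 CPM in tert+/- brains (log2 fold change -1.77 ± 0.48, edgeR adjusted p = 0.975).

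gpr151, which encodes an orphan receptor of habenular axons, was at 0.651, 2.97 and 1.98 CPM in tert-/- and at 8.20, 12.3, 7.66, 6.57 and 7.74 CPM in tert+/- brains (log2 fold change -2.19 ± 0.59; DESeq2 adjusted p = 0.0491). gng8, chosen after its values were seen, encodes a G protein gamma subunit and was at 0.062, 4.73 and 3.61 CPM in tert-/-, against 16.2, 20.4, 17.3, 6.79 and 13.8 CPM in tert+/-. adcyap1, the gene of the neuropeptide PACAP, was at 7.75, 8.65 and 7.57 CPM in tert-/- and at 9.16 to 23.8 CPM in tert+/- brains. chrna3, a nicotinic receptor subunit gene chosen in the same way, did not overlap either, at 0.589 to 0.660 CPM in tert-/- against 0.672 to 1.05 CPM in tert+/-. Wild-type brains had 0.377 to 0.864 CPM of chrna3, and their mean, 0.571 CPM, was nearer to that of tert-/- than to that of tert+/-. In contrast, slc5a7, the choline transporter gene, overlapped, at 19.5 to 20.4 CPM in tert-/- and 20.1 to 38.4 CPM in tert+/- brains.

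The levels of these genes also varied within genotypes. tert-/- 1 was lowest for kiss1, gpr151 and gng8 and was also the lowest of the tert-/- libraries in the hypothalamic peptide list, and wild type 4 had 1.17 CPM of kiss1, 1.17 CPM of gpr151 and 0.343 CPM of gng8. The hypothalamic peptide list itself holds kiss1. How much of the habenula each dissected brain held was not tested. The 6 genes named here kept their direction under every alternative that gave them a value. They were named for a low p or after their values were seen, so that this is no test of them. The median of the habenula list was -0.41 without tert-/- 2, -0.34 without tert-/- 3 and -0.32 without tert+/- 1. It was nearer to none, at -0.13, without tert+/- 2 and at -0.17 without tert+/- 3. Over the alternatives, log2 fold changes ranged from -2.26 to -1.36 for kiss1 and from -2.70 to -1.76 for gpr151.

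Lists of hypothalamic, pineal and telencephalic genes, and of photoreceptor genes, were lower in tert-/- by as much or more in their median log2 fold change. The cerebellar list went the other way, with 18 of 31 genes higher and a median of 0.10. Of 48 hypothalamic peptide genes 42 were lower, with a median of -0.38, and the median was -0.13 without tert-/- 1 and -0.18 without tert+/- 2. In the pineal list 12 of 15 genes were lower, with a median of -0.53 (-0.26 without tert+/- 3 and -0.79 without tert-/- 2). In the photoreceptor list 50 of 61 were lower, with a median of -0.62, and tert+/- 3 was the highest of the mutant libraries. Without that library 50 of the 61 genes passed the count filter, and the median was -0.16. The telencephalic list had 20 of 26 genes lower and a median of -0.20, which turned to 0.06 without tert-/- 1 and to 0.16 without tert+/- 5, and was -0.78 without tert-/- 3. The habenular genes were therefore not alone among region lists in having a median below 0. Some of these lists share members and are not independent. kiss1 is in both the habenular and hypothalamic lists, and crx and gngt1 are in both the pineal and photoreceptor lists. In mean log2 level the habenula list was at -0.58, -0.20 and -0.13 in tert-/-, against -0.10 to 0.39 in tert+/-, a narrow gap without overlap. The levels of the hypothalamic, pineal, photoreceptor and telencephalic lists overlapped between these groups. All lists were chosen with earlier results known, so that these levels are description only.

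**Figure D3:**
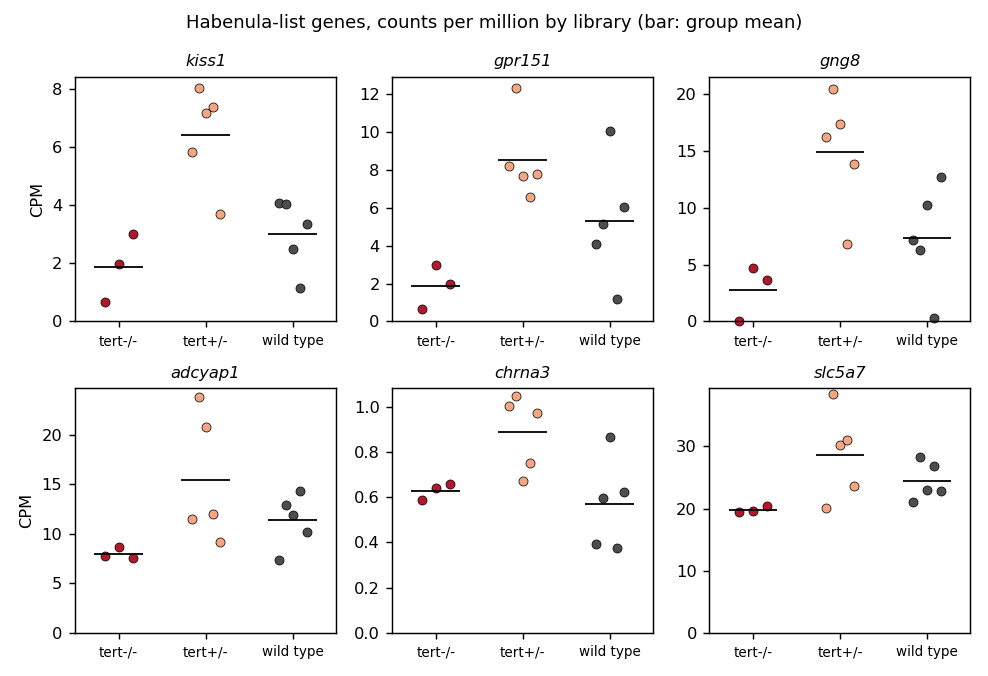
CPM of 6 habenula-list genes by library (vertical axis, from 0), with bars at group means. The tert-/- points lie below all tert+/- points in each panel but slc5a7, and in wild type the lowest points of kiss1, gpr151 and gng8 come from the same brain.

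A group of intestine-type genes was present in 4 of 5 tert+/- brains and nearly absent from tert-/-. apoea, an apolipoprotein E gene, had 2, 1 and 1 counts in tert-/-, against 136, 78, 1, 173 and 185 counts in tert+/- libraries, the 1 count belonging to tert+/- 3. apoa4b.2, an apolipoprotein A-IV gene, was at 0.372, 0.0958 and 0.116 CPM in tert-/- and at 4.46, 2.37, 0.179, 5.86 and 7.38 CPM in tert+/- brains. fabp1, a fatty-acid-binding protein gene, had 1 count over the 3 tert-/- libraries and 205 over the 5 tert+/- libraries, a ratio of tert+/- over tert-/- of 152 per unit of depth (95% exact interval 27.0 to 6038). That interval covers counting error only and not the spread between libraries.

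The same libraries carried chia.3, a chitinase gene, with 3, 2 and 0 counts in tert-/-, against 115, 27, 3, 72 and 131 counts in tert+/-. zgc:153968, chosen after its values were seen, had 0 counts in tert-/- and 95 in tert+/-, at least 23.5-fold higher in tert+/- against a floor of 3 counts over the group. apoa4b.3 and wu:fa56d06 had 1 count each in tert-/- and 98 and 69 in tert+/- brains. apoa1a was at 1.83, 0.926 and 0.932 CPM in tert-/- and at 8.84, 6.82, 1.39, 7.49 and 9.81 CPM in tert+/-. Wild-type brains were near 0 for most of these genes, for example 0 to 3 counts of apoea. Some of these genes have related copies, such as apoa4b.2 and apoa4b.3 or chia.1 and chia.3. How alike their sequences are, and how reads were assigned among them, was not tested.

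Of 32 genes tested from the intestine list, 6 were higher and 26 lower in tert-/-, with a median of -0.46 (-0.29 without tert-/- 3), and 9 of the lower ones had an unadjusted p under 0.05 (2.43% of all genes did). Members such as apoea, apoa4b.3 and chia.3 reached the minimum count of 10 only in tert+/- libraries and could only come out lower. The count of 9 is therefore no test of the list. Lists of other organs outside the brain also had medians below 0. In exocrine pancreas 10 of 13 genes were lower, with a median of -0.76 (-0.44 without tert+/- 3). In skin 19 of 26 were lower, with a median of -0.28, and in skeletal muscle 49 of 61, with a median of -0.24. The pancreas list lay close to the count filter. Of its 27 identifiers 13 were tested, 11 without tert+/- 3 and 2 at a minimum count of 50. The counts of these lists are therefore no test of them either. The skin median turned to 0.09 without tert-/- 1 and was -0.12 without tert+/- 4 or tert+/- 5 and -0.18 without tert+/- 2. The muscle median turned to 0.01 without tert+/- 3 and was -0.13 without tert-/- 2. Whether tissue from outside the brain entered the preparations was not tested. krt92, a keratin gene, followed the same libraries, with 0.093, 0.0319 and 0 CPM in tert-/- and 1.13, 0.465, 0.0448, 0.837 and 1.09 CPM in tert+/- brains. apoea was the only gene called by edgeR when tert+/- 3 was left out (log2 fold change -6.90, adjusted p = 0.00161). tert+/- 3 was the tert+/- library with the fewest apoea counts. Since apoea passed the count filter only through tert+/- libraries, this call is no test of it either.

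Several structured RNAs had low values in tert-/-. Each was named because DESeq2 called it or after its values were seen, and no list of such RNAs was counted, so that their values describe these RNAs alone. rn7sl1, the RNA of the signal recognition particle, was at 6.38, 3.70 and 5.55 CPM in tert-/- and at 60.6, 24.7, 355, 131 and 636 CPM in tert+/- brains. rn7sk, which holds back transcription elongation, was at 2.14, 1.12 and 2.02 CPM in tert-/-, against 13.1, 6.55, 75.9, 27.5 and 124 CPM in tert+/-. rmrp, the RNA of RNase MRP, was at 0.155, 0.128 and 0.194 CPM in tert-/-, against 1.08, 0.271, 8.01, 3.39 and 13.2 CPM in tert+/- brains. These 3 RNAs did not overlap between the groups, and in each the highest library was tert+/- 5 and the next tert+/- 3.

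rpph1, the RNA of RNase P, overlapped narrowly, at 0.310, 0.351 and 0.699 CPM in tert-/- against 0.620 to 15.2 CPM in tert+/-, and rnasep_nuc, a second entry for that RNA, was at 0.0388 to 0.217 CPM in tert-/- and 0.233 to 3.63 CPM in tert+/-. The unnamed ENSDARG00000103816 was at 1.798, 5.524 and 2.058 CPM in tert-/-, against 18.2, 172, 104, 219 and 1210 CPM in tert+/- brains. It has no symbol, and its class of RNA is not known here. Wild-type brains spanned 5.96 to 66.3 CPM of rn7sl1 and thus reached into the tert+/- range. The named structured RNAs carry no poly(A) tail as a rule, and the kit used selects poly(A) RNA. How completely each library excluded such RNA was not tested.

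**Figure D4:**
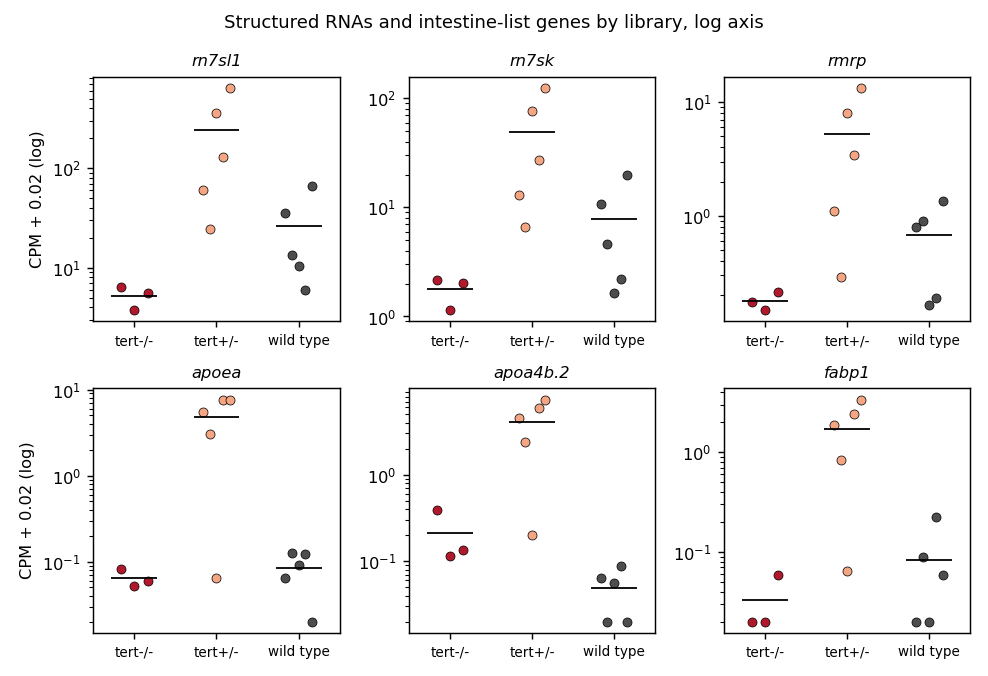
CPM plus 0.02 on a log axis for 3 structured RNAs (top) and for apoea, apoa4b.2 and fabp1 (bottom), by library, with bars at group means. Of the lower panels, apoea and apoa4b.2 belong to the intestine list and fabp1 is not among its tested members. Within tert+/-, rn7sl1 spans 24.7 to 636 CPM, and 1 tert+/- brain lies with the tert-/- points in each lower panel.

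Differences in protein synthesis genes were small. All 81 cytosolic ribosomal protein genes tested had a log2 fold change below 0, with a median of -0.12 and a range of -0.27 to -0.02, and 8 had an unadjusted p under 0.05 (2.43% of all genes were lower at that p). Over all genes tested, 50.6% were below 0. The list's mean log2 level was -0.21, -0.06 and 0.08 in tert-/-, against 0.19, 0.11, 0.03, -0.08 and 0.07 in tert+/- brains, and these overlapped. The count depended on tert-/- 1, without which 65 of 81 were below 0 and the median was -0.04. Without both tert-/- 1 and tert+/- 1, an alternative chosen after seeing the data, 47 of 81 were below 0 and the median was -0.02. Without tert-/- 3 the median was -0.20. Against wild type, the median log2 fold change of this list was 0.09 in tert+/- and -0.03 in tert-/-. rpl38 was at 107, 133 and 125 CPM in tert-/-, against 144, 139, 144, 138 and 133 CPM in tert+/-.

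All 13 mitochondrially encoded protein genes were also below 0, with a median of -0.25, and they stayed below 0 under every alternative run. The median was -0.16 without the 3 libraries highest in photoreceptor genes. Their list level was -0.15, 0.16 and -0.14 in tert-/-, against -0.07, 0.03, 0.46, 0.42 and 0.13 in tert+/-, again with overlap. They took 10.2 ± 1.25% of counts in tert-/- and 11.6 ± 1.996% in tert+/- brains (SD, n = 3 and 5; exact permutation test, two-sided, p = 0.321). Against wild type, the median log2 fold change of the mitochondrially encoded genes was 0.37 in tert+/- and 0.14 in tert-/-. Both mutant groups thus lay above wild type, tert+/- the further. The nuclear genes of oxidative phosphorylation had 37 of 91 higher, 54 lower and a median of -0.01, with either sign when single libraries were left out (-0.06 without tert-/- 2 and 0.02 without tert-/- 3).

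In the unfolded protein response list, 27 of 43 genes were higher and 16 lower in tert-/-, with a median of 0.04, and 4 had libraries above all those of tert+/- (1.17% of all genes did). Without tert+/- 2, 21 were higher and 22 lower, with a median of -0.01, and the median was 0.07 without tert+/- 3 or without tert-/- 1. The chaperone gene dnajb9 appears as 2 gene entries. ENSDARG00000052072 was at 6.29, 6.10 and 5.75 CPM in tert-/- against 2.73 to 5.11 CPM in tert+/-, and ENSDARG00000016886 was at 1.15, 0.862 and 1.36 CPM in tert-/- against 0.441 to 0.814 CPM in tert+/-. calr3b, a calreticulin gene, was at 20.4, 24.0 and 21.1 CPM in tert-/- and at 11.01, 10.24, 15.81, 16.35 and 17.92 CPM in tert+/- brains. xbp1, the transcription factor gene of this response, had the other sign, at 165, 178 and 186 CPM in tert-/- against 187 to 203 CPM in tert+/- (log2 fold change -0.15 ± 0.07). Wild-type brains, at 163 to 182 CPM of xbp1, were nearer to tert-/- than to tert+/-.

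In the endothelial list 28 of 40 genes were higher in tert-/-, with a median of 0.22. It was 25 of 40 with a median of 0.10 without tert-/- 2, and 25 of 40 with a median of 0.11 without tert+/- 1. notch3, which encodes a receptor of mural cells and radial glia, was at 61.0, 62.2 and 58.4 CPM in tert-/-, against 35.5, 55.4, 33.9, 28.2 and 57.8 CPM in tert+/-, and tie1, an endothelial receptor gene, was at 8.59, 10.6 and 9.36 CPM in tert-/- against 3.17 to 8.34 CPM in tert+/-. Wild-type brains had 53.2 to 66.0 CPM of notch3, close to tert-/-. For tie1 they had a mean of 9.40 CPM, against 9.53 CPM in tert-/- and 6.16 CPM in tert+/-, and were thus also close to tert-/-. plvapb, a gene of fenestrated endothelium, had a log2 fold change of -0.56 ± 0.21. Erythroid genes were higher in 13 of 15, with a median of 0.44, but in 9 of 15, with a median of 0.12, without tert-/- 1. The median was 0.69 without tert-/- 3 and 0.84 without tert+/- 4. Their list level was 1.04, 0.52 and -0.69 in tert-/-, against -0.46, 0.03, -0.49, 0.72 and -0.39 in tert+/-, so that tert-/- 3 was the lowest of these 8 libraries. klf1, an erythroid transcription factor gene, was at 4.866, 3.097 and 0.505 CPM in tert-/- and at 0.402 to 1.85 CPM in tert+/-, and the globin gene hbaa1 at 543, 295 and 98.9 CPM in tert-/- against 90.5 to 285 CPM in tert+/-. The amount of blood in each brain was not tested.

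Retinoid genes, which the study followed, were near balance: 24 of 55 were higher and 31 lower in tert-/-, with a median of -0.03 (0.01 without tert+/- 2 and -0.08 without tert-/- 2). aldh1a2, which encodes the enzyme that makes retinoic acid, was at 35.4, 29.1 and 33.7 CPM in tert-/-, against 24.8, 21.9, 26.8, 21.9 and 25.8 CPM in tert+/- brains (log2 fold change 0.43 ± 0.17, edgeR adjusted p = 0.975), while wild-type brains spanned 21.5 to 41.3 CPM. rbp5, a retinol-binding protein gene, was at 4.80, 9.42 and 10.2 CPM in tert-/- and at 10.7 to 21.5 CPM in tert+/- brains. The neurosteroid list had 21 of 41 genes higher and a median of 0.00 (-0.09 without tert-/- 2). Hox genes of the hindbrain and spinal cord had the most negative median of the lists, -1.22, with list levels of -2.30, -2.27 and 1.48 in tert-/-, against -0.95, 2.53, 0.22, -2.60 and 1.39 in tert+/- brains. Without tert-/- 3 the median was -5.41, without tert-/- 2 it was -0.79, and without tert+/- 2 it was -0.03, with 11 of 21 genes lower. Libraries of both genotypes were thus at either end, and how much hindbrain each brain held was not tested.

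**Figure D5:**
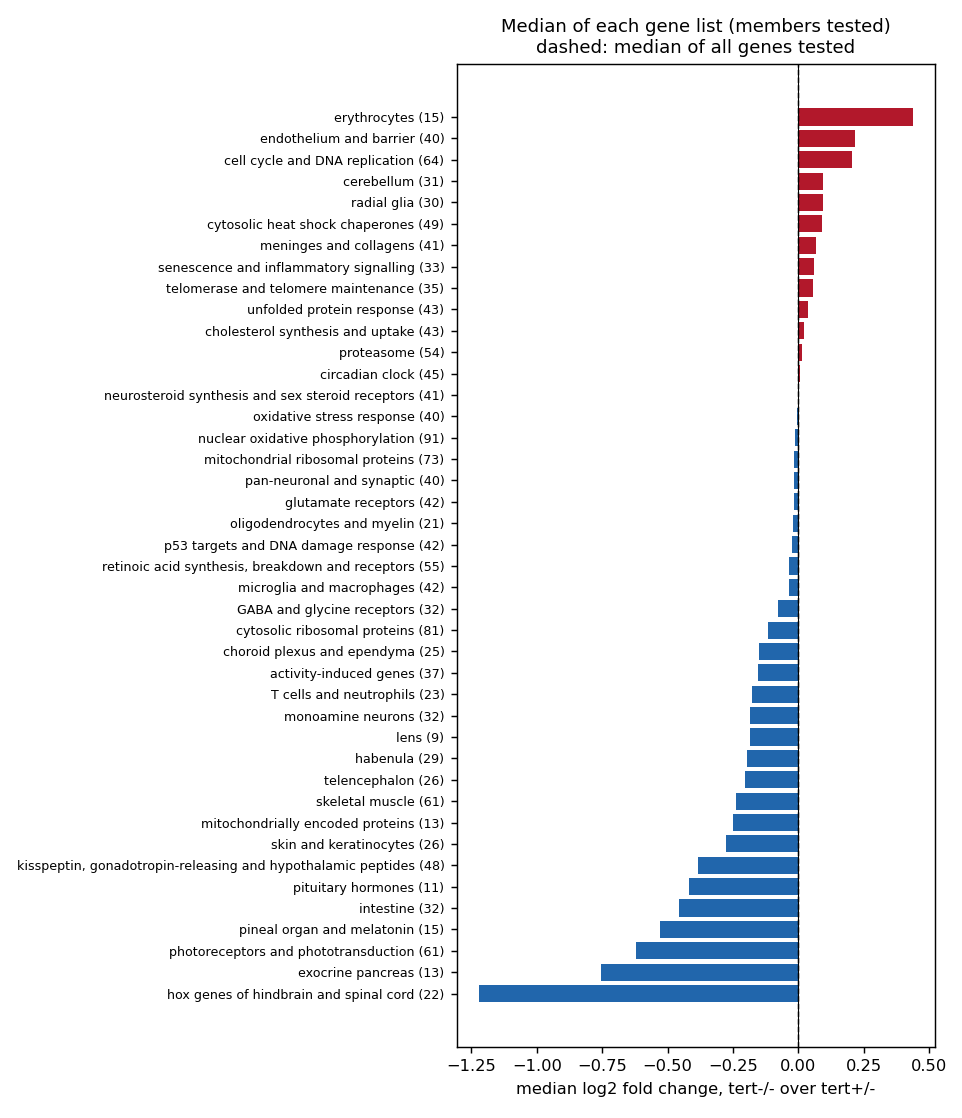
Median log2 fold change of tert-/- over tert+/- for each of 42 gene lists (horizontal axis), with the number of members tested in brackets and a dashed line at the median of all genes. The medians run from -1.22 for hox genes to 0.44 for erythroid genes, and no member of any list was called by edgeR.

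Loss of the second allele was also set against loss of the first in one contrast, tert-/- minus tert+/- less tert+/- minus wild type. By edgeR, 2 of 20064 genes passed at an adjusted p under 0.05 (0.00997%), and 1564 had an unadjusted p under 0.05 (7.8%). Both were intestine-list genes that were high only in tert+/- brains: apoea (log2 difference of steps -12.64, adjusted p = 0.0465) and apoa4b.2 (-11.20, adjusted p = 0.0465). They passed the count filter only through tert+/- libraries, so that these calls are no test of them. Leaving out any single library other than tert+/- 3 ended both calls. The steps of akt1, -0.57 ± 0.15 for the first allele and 0.76 ± 0.16 for the second, had a difference of 1.34 ± 0.27 (edgeR adjusted p = 0.261). For bdnf they were 0.51 ± 0.11 and -0.48 ± 0.13, a difference of -0.99 ± 0.20 (edgeR adjusted p = 0.261). Both steps share the tert+/- libraries, so that a deviation of these libraries enters them with opposite signs.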

How the data were processed

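RNA of zebrafish brain was sequenced in 13 libraries made with the TruSeq RNA kit version 2, which does not mark strand. Per the labels, reads were made with bcl2fastq 1.8.4, aligned to GRCz10 with STAR 2.4.1d and counted per gene with featureCounts 1.4.6-p4. The annotation release is not given in the sources used here. The deposited counts are raw whole numbers per Ensembl gene for 32105 identifiers, of which 81.8% had a symbol in the name table. Symbols are written in lower case. The deposited RPKM values were not used.

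Genes were filtered with filterByExpr (minimum count 10) and tested with edgeR 4.0.16 (TMM factors, quasi-likelihood test, Benjamini-Hochberg adjustment over all genes) in one fit of the 3 genotypes, with R 4.3.3. CPM values use the TMM factors, and list levels are mean log2 CPM (prior count 2) minus each gene's mean over the 13 libraries. DESeq2 1.42.0 and limma 3.58.1 were alternatives, as were other size factors, filters, covariates and sets of libraries. The edgeR and DESeq2 fits were tested on simulated data, in which DESeq2 called more unchanged genes than edgeR did. Its calls are therefore given beside edgeR's and not in their place. The simulated counts were drawn with dispersions that edgeR estimated, for genes that passed its filter. They therefore cannot settle which tool is nearer the truth in these data.

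The members and the 42 gene lists were chosen with earlier results of these data known. Where a listed name belonged to several fish copies, each copy was counted. Named genes were tert, the 10 genes with the lowest p in each direction, the 5 with the greatest change among those without overlap and at least 1 CPM, up to 10 DESeq2 calls in each direction, and members of lists with the lowest p (3 in each). Other genes, among them gng8, chrna3, slc5a7, apoa1a, chia.1, xbp1, tie1, hbaa1, zgc:153968, rnasep_nuc, cdc42se2, nwd2, ENSDARG00000101840 and si:ch211-233m11.1, were named after their values were seen. Intervals and floors cover counting error only, since reads without molecular identifiers are not independent molecules.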

Additional observations from a re-analysis of the deposited data

Results flagged for a closer look

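In 176 checks of 1 library against the other 4 of its genotype, over the genes, lists and library measures reported and both groups of 5, 8 values stood apart, and chance alone gives about 1 in 20. tert+/- 5 had 1210 CPM of ENSDARG00000103816 and 37.7 CPM of fam222b, each above the other tert+/- brains. tert+/- 2 had 12.3 CPM of gpr151 and 52.6 CPM of cdc42se2, and tert+/- 4 had 4.80 CPM of gata1a, an erythroid transcription factor gene. In mean log2 level, tert+/- 3 was high in the photoreceptor list, at 1.43, and tert+/- 5 in the skin list, at 0.62. Wild type 5 had 0.0390 CPM of zgc:153968, which was 1 count against 0 in the other wild-type brains.

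The effect of losing the second allele differed from that of losing the first for apoea, by -12.64 on the log2 scale, and for apoa4b.2, by -11.20 (edgeR, adjusted p = 0.0465 for both). Each was high in 4 of 5 tert+/- brains, and the fitted size depends on the prior count because the other genotypes were near 0.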

How the results depend on the processing

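No paired analysis was possible because the replicate numbers follow the order of the sample records and the labels pair no fish. For tert-/- against tert+/-, the count of genes called was 0 with edgeR, 20 with DESeq2, and 0 to 1 when single libraries were left out (1 without tert+/- 3, which was apoea). It was 1 without the 3 libraries highest in photoreceptor genes, an alternative chosen after seeing the data. The count at an unadjusted p under 0.05 was 927, and 530 when only the tert-/- and tert+/- libraries were fitted. Leaving out single libraries gave 735 to 1333. For the second step minus the first, 2 genes were called, 41 with DESeq2, 0 with limma voom, 0 with the runs of title numbers as covariate, 0 to 11 when single libraries were left out, 0 without tert-/- 1 and tert+/- 1, also chosen after seeing the data, and 6 without the 3 libraries highest in photoreceptor genes. The difference in total counts was 4825900, and 3427100 to 6903100 when single libraries were left out, with an exact p of 0.0476 without tert-/- 3. The cause of these shifts was not tested. None of the 63 named genes, identifiers counted singly, changed sign in the 1370 of 1386 pairs of gene and alternative that gave a value. In the other 16 the gene fell below the count filter. Most of these genes were named for a low p, for libraries without overlap or after their values were seen. Their unchanged sign was thus largely fixed by that choice and is no test of them. The labels do not say what the title numbers mean. Only 3 tert-/- libraries carried the comparison, which limits its precision.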
